A study of Mus musculus with 2 samples.

Results

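Upper keratinocytes of the mouse palatal gingiva were examined by single-cell RNA-seq (scRNA-seq). They were chosen as barcodes with at least 800 detected genes in which Krt5, Krt14, Krt76, Krt24 and Krt10 together held at least 1% of the unique molecular identifiers (UMIs, each 1 captured RNA molecule). They also held at least 10 UMIs of Krt76 and Krt24, at least 0.05% of UMIs from Krt10, and fewer than 10 UMIs over 6 mitosis genes. The rule found 1174 cells among 6165 cells kept and 8235 barcodes in all. Of these, 928 came from the library of gingiva exposed to CpG ODN, a TLR9 ligand, and 246 from the library of gingiva exposed to P. gingivalis LPS, a TLR2/4 ligand. Both groups were female C57BL/6 mice (C57Bl6/J in the treatment notes) of 8 to 12 weeks with no other alteration in the labels. The ligand was placed on the palate as 3 µl of a 1 µg/ml solution for 1 h under an oral appliance, and the gingiva was taken on day 4. Cells of 4 mice were combined in each library, so that 1 library stood for each ligand and the mice could not be told apart. No untreated library was analysed here. Cells of 1 library are not replicates, and no test between the ligands was possible. Values below are given for the CpG ODN library first and for the LPS library second.

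The gingiva is covered by a keratinized stratified epithelium. Its basal cells adhere to the basement membrane through integrins, laminin and collagen XVII and express Krt5 and Krt14. Cells that leave the basal layer take up suprabasal keratins such as Krt10, assemble desmosomes rich in desmoglein 1 and desmocollin 1, and deposit cross-linked proteins and lipids as a cornified envelope. Many of the envelope proteins are encoded side by side in the epidermal differentiation complex. Crnn encodes cornulin, a fused S100-type protein of the upper layers of squamous epithelia.

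The whole series held 72173148 and 38656738 UMIs in 6219 and 2016 barcodes, of which 4888 and 1277 passed the minimum of detected genes. The upper keratinocytes made up 19.0% of the cells kept in the CpG ODN library (95% Clopper-Pearson interval 17.9 to 20.1) and 19.3% in the LPS library (17.1 to 21.5). All intervals here cover counting error only, since neither mice nor libraries were repeated. Their median depth was 26234 and 45849.5 UMIs, with 3897 and 5148.5 detected genes. The LPS library was the deeper one in every class of cell compared. Barcodes present in both libraries numbered 5, of which 2 were upper keratinocytes of the CpG ODN library, and the shares stayed at 19.0% and 19.3% without them.

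The members were chosen by their own UMIs of Krt10, Krt76, Krt24, Krt5, Krt14 and the mitosis genes, and these values are given as a description. Krt10 took a median of 0.341% of UMIs in the upper keratinocytes of the CpG ODN library, from 0.0506% to 9.24%. In the LPS library the median was 0.386%, from 0.0502% to 7.30%. A cell just inside the limit, with Krt10 between 0.05% and 0.06% of UMIs, was counted 41 and 7 times, and cells just outside, between 0.04% and 0.05%, numbered 37 and 19. Krt76 and Krt24 together had a median of 1038.5 and 1911 UMIs per upper keratinocyte. Only 3 and 0 members held as few as 10 to 14 of these UMIs, and 1 and 0 cells missed the limit with 5 to 9. Mitosis genes reached 5 to 9 UMIs in 3 and 2 members, and 1 and 0 cells were left out with 10 to 14.

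The nearest other cells were the keratinocytes that met every other limit but held under 0.05% of Krt10, called Krt10-low keratinocytes here. They numbered 1916 and 411, and Krt10 was at 0 UMIs in 929 and 141 of them. Their median depth of 12090.5 and 22904 UMIs was lower than that of the upper keratinocytes. With a median of 54 and 76 UMIs of Krt76 and Krt24, most Krt10-low cells held far less of this keratin pair than the upper keratinocytes. Basal keratinocytes, with under 10 UMIs of Krt76 and Krt24, numbered 648 and 149. The name basal refers to this limit, and none was set on their Krt10, so the class can include cells with differentiation genes. At least 1 Krt10 UMI was found in 195 and 74 of them.

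The 6 marker genes given for the upper keratinocytes were all higher in them than in the Krt10-low cells in both libraries. Levels are UMIs of a gene per 1000000 UMIs of the summed cells of a class (CPM), and they are compared between classes of cells, not between genes. Krt10 (chr11:99385254-99389364 in GRCm38) reached 6609.5 and 7309 CPM in the upper keratinocytes against 96.5 and 111 CPM in the Krt10-low cells, a difference set by the rule. In the basal keratinocytes Krt10 stood at 350 and 98.5 CPM, above the Krt10-low cells in the CpG ODN library. Krt16 (chr11:100246091-100248902), a keratin of stressed and palatal epithelium, reached 16480.0 and 15526 CPM against 2559 and 2288 CPM. Its ratio was 6.44 (95% interval 6.39 to 6.49) and 6.79 (95% interval 6.70 to 6.88). The level of Krt16 was thus higher in the upper cells in each library, and the libraries lay close to each other.

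Krt6b (chr15:101676023-101680287), a partner of Krt16, stood at 6426 and 6253 CPM against 780.1 and 767 CPM, a ratio of 8.24 and 8.15. Spink5, which encodes the kallikrein inhibitor LEKTI, stood at 1347 and 1254 CPM against 296 and 294 CPM, with ratios of 4.55 and 4.26. Cryba2 (chr1:74889934-74893143), a crystallin gene best known from the lens, stood at 400.2 and 398 CPM against 69.0 and 69.2 CPM, with ratios of 5.80 and 5.75. With the limit for Krt10 raised to 0.5% of UMIs, and cells below it counted as Krt10-low, the smaller Cryba2 ratio of the 2 libraries was 1.77. With all members counted these 3 genes thus resembled Krt16 in direction in both libraries.

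Crnn (chr3:93144787-93149819) had 343 and 401 CPM in the upper keratinocytes and 22.4 and 44.4 CPM in the Krt10-low cells. Its ratio was 15.3 (95% interval 14.1 to 16.7) and 9.04 (95% interval 8.22 to 9.96), and the Krt10-low cells of the LPS library stood higher than those of the CpG ODN library. At least 1 Crnn UMI was found in 59.8% and 65.9% of the upper keratinocytes and in 6.58% and 10.5% of the Krt10-low cells. Lymphocytes, which should lack the gene, held it in 2 of 579 cells (0.345%) and 1 of 95 cells (1.05%), at median depths of 2915 and 3566 UMIs. The share in the upper keratinocytes thus lay far above that in lymphocytes, although the upper cells were also deeper.

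**Figure D1:**
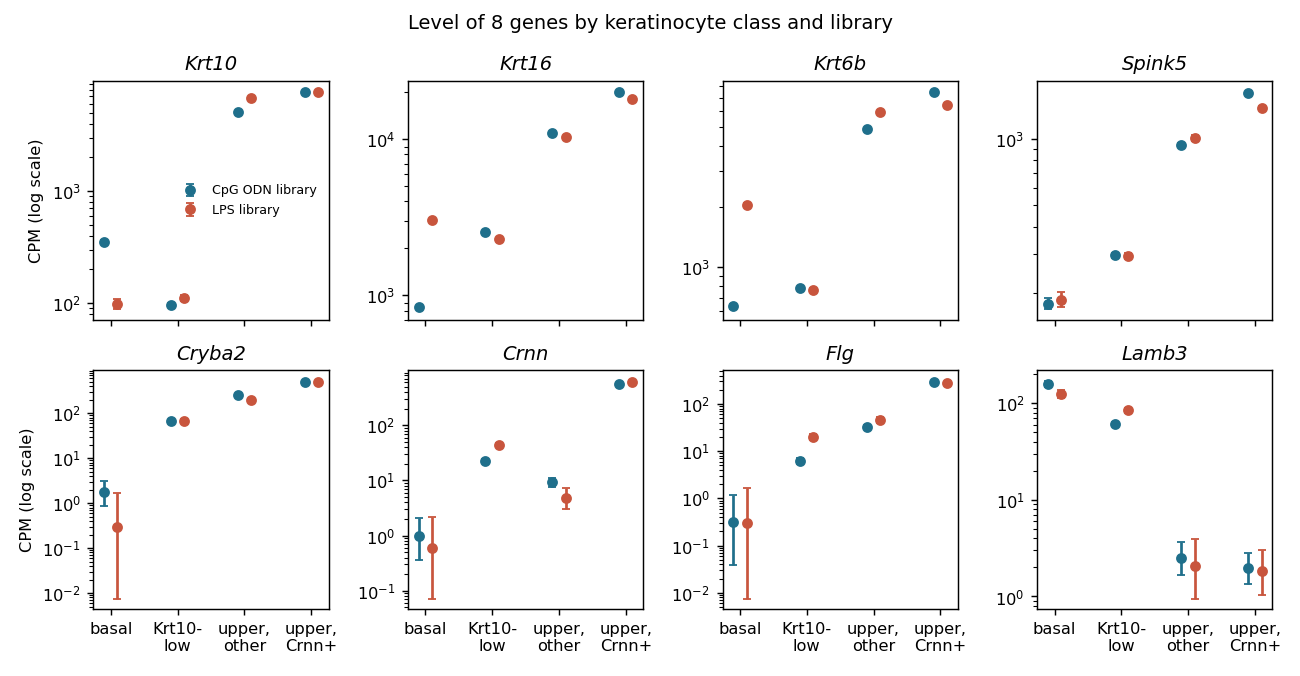
Levels of 8 genes in basal keratinocytes, Krt10-low keratinocytes, other upper keratinocytes and Crnn-positive upper keratinocytes, as CPM of summed cells on a log axis, with 1 point per library and bars for the 95% Poisson counting interval. Krt16, Spink5 and Cryba2 stand higher with each class from the Krt10-low to the Crnn-positive cells in both libraries. In the LPS library Krt16 and Krt6b stand higher in the basal than in the Krt10-low cells, at 3022 against 2288 CPM and 2037 against 767 CPM. Flg reaches 294 and 281 CPM in the Crnn-positive cells, and Lamb3 stands highest in the basal cells.

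The promoters of 5 genes are shown as examples, whose start-site regions can be read for short motifs. Crnn, Flg and Cryba2 were higher in the upper than in the Krt10-low cells in both libraries, and Krt10 is a gene of the rule. Lor was not higher in both, with ratios of 0.956 and 9.25. These 5 do not stand for the envelope list, whose share of matches is given below. The sequences run 5′ to 3′ on the gene's strand, from 250 bases before to 50 bases after the RefSeq start site, in build GRCm38.p6. Capitals mark TGANTCA, searched on both strands (its reverse complement is TGANTCA as well, so each match is counted once). This is a loose form of the AP-1 site, TGACTCA or TGAGTCA, with any base in the middle. The marked letters are TGAATCA in Crnn and Flg, TGAGTCA in Lor and TGACTCA in Cryba2. Matches with another middle base than C or G are thus not the AP-1 site itself, and the shares below include them. Crnn lies at chr3:93144539-93144838 on the plus strand, with its match 96 bases before the start site. Flg, the gene of filaggrin, lies at chr3:93273296-93273595 on the plus strand, with its match 103 bases before the start. Lor, the gene of loricrin, lies at chr3:92083093-92083392 on the minus strand, with its match 48 bases before the start. Cryba2 lies at chr1:74893094-74893393 on the minus strand, with its match 59 bases before the start. Krt10 lies at chr11:99389315-99389614 on the minus strand and holds no match in this window.
Crnn: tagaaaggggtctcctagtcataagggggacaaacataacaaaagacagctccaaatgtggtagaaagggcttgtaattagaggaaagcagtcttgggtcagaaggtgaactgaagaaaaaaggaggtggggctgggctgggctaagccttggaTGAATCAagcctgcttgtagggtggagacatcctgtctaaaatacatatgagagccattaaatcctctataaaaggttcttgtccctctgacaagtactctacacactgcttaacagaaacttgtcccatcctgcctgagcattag
Flg: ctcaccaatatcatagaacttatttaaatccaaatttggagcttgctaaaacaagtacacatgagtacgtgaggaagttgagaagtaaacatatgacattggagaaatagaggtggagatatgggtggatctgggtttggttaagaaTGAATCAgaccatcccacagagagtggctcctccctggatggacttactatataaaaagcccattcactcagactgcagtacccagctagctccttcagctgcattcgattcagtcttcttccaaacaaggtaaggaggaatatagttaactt
Lor: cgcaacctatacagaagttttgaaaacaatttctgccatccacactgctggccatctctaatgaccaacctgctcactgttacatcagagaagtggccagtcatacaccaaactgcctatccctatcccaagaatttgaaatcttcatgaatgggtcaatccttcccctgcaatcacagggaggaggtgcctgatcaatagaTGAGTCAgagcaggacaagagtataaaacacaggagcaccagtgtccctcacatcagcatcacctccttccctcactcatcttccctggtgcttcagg
Cryba2: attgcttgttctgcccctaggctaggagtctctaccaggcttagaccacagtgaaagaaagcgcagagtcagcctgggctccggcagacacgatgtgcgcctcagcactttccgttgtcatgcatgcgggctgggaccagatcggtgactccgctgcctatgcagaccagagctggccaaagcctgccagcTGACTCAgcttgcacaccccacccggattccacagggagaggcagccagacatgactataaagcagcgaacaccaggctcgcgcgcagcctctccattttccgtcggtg
Krt10: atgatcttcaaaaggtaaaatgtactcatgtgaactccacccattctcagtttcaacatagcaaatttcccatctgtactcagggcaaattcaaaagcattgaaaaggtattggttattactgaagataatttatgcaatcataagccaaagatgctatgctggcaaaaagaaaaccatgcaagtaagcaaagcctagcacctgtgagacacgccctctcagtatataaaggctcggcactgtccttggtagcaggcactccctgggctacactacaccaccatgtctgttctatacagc

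Of 32851 RefSeq promoters of this length, 7.81% held TGANTCA, and of the promoters of genes tested here 5.25% did. Among 514 promoters of genes at least 2-fold higher in the upper keratinocytes, 74 held it (14.4%). Among 1771 promoters of genes at least 2-fold lower, 97 held it (5.48%). Of 49 promoters of the cornified envelope list, which belong to 45 genes whether tested or not, 21 held it (42.9%). The letters CCACCC, bound by KLF-type factors, were in 31.5% of all promoters and in 36.8% of those of genes tested. They were in 44.2% of those of the higher genes and in 40.5% of those of the lower genes. In the envelope list they were in 16 of 49 (32.7%), below the share of genes tested. AACCNGTT, a grainyhead-type motif, was in 2.09% of all promoters, 1.88% of those of genes tested and 2.33% of those of the higher genes. It was in 1.64% of those of the lower genes and in 2 of 49 (4.08%) of the envelope list. A match describes letters in this window and not a bound site. Promoters were found for 428 of 586 higher and 1344 of 1731 lower genes, and none was listed for Krt16, Krt6b, Spink5, Krt1 or Slurp1.

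The comparison of upper with Krt10-low keratinocytes asked which genes went with the presence of Krt10. Over 11644 genes with at least 50 UMIs, leaving out the genes of the rule, 586 (5.03%) were at least 2-fold higher in the upper cells in both libraries, with the counting interval on one side of 1. Lower by the same measure were 1731 genes (14.9%). Scaled by the median ratio of well-counted genes in place of total UMIs, these counts were 736 and 1255, since the median gene stood 0.22 and 0.19 log2 units lower in the upper cells. Over all genes tested the median log2 ratio was -0.37 and -0.36. Counts and medians of list members below are read against these values and carry no test. The upper cells also held a smaller share of mitochondrial UMIs, with a median of 3.21% and 3.74% against 4.87% and 5.60%, whose part in these ratios was not tested.

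Of the 16 lists, cornified envelope genes were the group most often higher with all cells counted. Of 31 members tested, 26 were at least 2-fold higher and 0 lower, with a median log2 ratio of 2.41 and 3.08. Krtdap, which encodes keratinocyte differentiation-associated protein, had 2979.9 and 2443 CPM against 454 and 278 CPM. Its level was thus higher than in the Krt10-low cells in both libraries, with ratios of 6.57 and 8.80. Basal keratinocytes lay between, at 738 and 1272 CPM of Krtdap. Sbsn, the gene of suprabasin, had ratios of 5.55 and 5.61, and Cnfn, the gene of cornifelin, 7.71 and 9.57. The transglutaminases that cross-link the envelope were also higher, with ratios of 7.71 and 6.84 for Tgm1 and 4.64 and 3.91 for Tgm3. The plakins of the desmosome-anchored scaffold differed less, at 2.76 and 3.01 for Ppl and 2.94 and 3.05 for Evpl.

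Filaggrin-type genes showed wide gaps. Flg had 191 and 199.5 CPM in the upper keratinocytes and 6.25 and 20.1 CPM in the Krt10-low cells. Hrnr, which encodes hornerin, had 139 and 92.4 CPM against 3.01 and 0.663 CPM. These are ratios of 30.5 and 9.93 for Flg and 46.0 and 139 for Hrnr. Ivl, the gene of involucrin, was scarce in the upper cells at 1.46 and 2.09 CPM. Sprr1a and Sprr1b, small proline-rich cross-link substrates, had ratios over the Krt10-low cells of 6.06 and 8.43 and of 15.4 and 6.58. Sprr1a had 544 and 511 CPM in the upper cells and 320 and 541 CPM in basal keratinocytes. For Sprr1b these levels were 430 and 244 CPM and 75.9 and 215 CPM. In the LPS library Sprr1a was thus not higher in the upper than in the basal cells.

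The level of Lor rested on 1 cell in the LPS library. It had 114 and 700.2 CPM in the upper keratinocytes and 119 and 75.7 CPM in the Krt10-low cells. In the LPS library 1 upper keratinocyte of 121055 UMIs held 75% of the Lor UMIs of these upper cells. The same cell held 98.5% of their UMIs of 5 Lce3 genes, which encode late cornified envelope proteins. In the CpG ODN library 1 cell of 8253 UMIs held 91.2% of the Lce3 UMIs of the upper keratinocytes. Without these 2 cells the Lor ratio was 0.926 and 2.34, and 22 of the 31 envelope genes were at least 2-fold higher. Of the 22 lipid barrier genes tested 16 were then higher, so the envelope list no longer had the largest share.

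Most Lce3 UMIs thus came from 1 upper keratinocyte in each library. Lce3a and Lce3b, 2 of the 10 genes with the highest ratios, held 26 and 23 UMIs (Lce3a) and 2 and 10 UMIs (Lce3b) in the upper keratinocytes without those cells. The Lce3a ratios were then 3.80 and 3.94, but 1 further cell in each library held 19 and 17 of the Lce3a UMIs left. Lce3 UMIs were found in 25 of 928 and 20 of 246 upper keratinocytes. Near-identical family members (Lce3, Sprr2a, Serpinb3) can share reads, which was not tested, so their separate values are uncertain.

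Genes of the epidermal differentiation complex were compared as a stretch of chromosome 3. Between Lor and Tchhl1 (chr3:92080271-93471980 in GRCm38), 17 of 22 genes tested were at least 2-fold higher in the upper keratinocytes and 0 were lower. Without the 2 cells rich in Lce3, 13 of the 22 were higher and 0 lower.

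Keratins were higher in part. Of 12 tested outside the rule, 7 were at least 2-fold higher and 1 lower, with a median log2 ratio of 1.37 and 1.38. Krt1, the usual partner of Krt10 in epidermis, had 265 and 678 CPM in the upper cells against 25.5 and 40.8 CPM. Krt1 was thus higher than in the Krt10-low cells in both libraries, but 1 LPS cell held 40.8% of its UMIs in the upper cells. Basal keratinocytes had 208 and 138 CPM of Krt1, so the gap to them was smaller. Krt13, the keratin of mucosa that does not cornify, had 14267 and 15438 CPM against 4272 and 5077 CPM. Krt13 or Krt4 had at least 3 UMIs in 862 of 928 and 242 of 246 upper keratinocytes. Krt15, a basal keratin, was the one lower, with ratios of 0.180 and 0.0900.

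Genes of the lipid barrier were higher as a group. Of 22 tested, 16 were at least 2-fold higher and 0 lower, with a median log2 ratio of 1.54 and 1.74. Elovl4, which makes very long fatty acids for barrier ceramides, had 136 and 135 CPM against 12.0 and 12.0 CPM. Its ratios of 11.4 and 11.2 were close in the 2 libraries. Alox12b and Aloxe3, lipoxygenases that act in turn on barrier lipids, had ratios of 7.48 and 9.35 and of 7.10 and 13.7. Abca12, the lipid transporter of lamellar granules, had 8.05 and 5.72, and Cers3, a ceramide synthase, 2.56 and 2.70. Fabp5, a fatty acid binding protein, missed the 2-fold limit with ratios of 1.88 and 1.91.

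Proteases of the upper epithelium and their inhibitors were both higher. Of 20 proteases 12 were at least 2-fold higher, and of 19 inhibitors 11, with 0 lower in either list. The median log2 ratio was 1.28 and 1.98 for proteases and 1.49 and 2.08 for inhibitors. Klk5, a kallikrein that starts the protease cascade of desquamation, had 7.85 and 6.59 CPM against 0.264 and 0.284 CPM, and its ratios were 29.8 (95% interval 14.2 to 75) and 23.2 (95% interval 7.66 to 115). Klk14 had ratios of 11.7 and 13.0 and Asprv1, a protease that processes filaggrin, 4.00 and 6.31. Klk7 had ratios of 6.74 (95% interval 3.45 to 14.7) and 39.6 (95% interval 13.3 to 194). In the LPS library 1 cell held 60 of its 63 UMIs in upper cells with at least 2 Crnn UMIs. Another held 31 of its 77 UMIs in the other upper cells. Among inhibitors Cst6, the gene of cystatin M/E, had ratios of 7.77 and 7.98 and Serpinb12 7.84 and 6.88. Serpinb3a had 20.4 and 11.4. Proteases and inhibitors of them thus stood higher in the same class of cells.

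Adhesion genes divided by layer. Of 12 desmosome genes 3 were at least 2-fold higher and 1 lower. Dsc1, the desmocollin of upper layers, had 150.4 and 137 CPM against 5.91 and 7.30 CPM, and its ratios of 25.4 and 18.8 placed it among the 10 genes with the highest ratios of those with at least 100 UMIs. Dsg1a and Dsg1b, desmoglein 1 genes, had 2.65 and 2.97 and 2.20 and 2.34. Dsg2, a desmoglein of the basal layer, had 0.0719 and 0.0660. Of 14 tight and gap junction genes 7 were higher and 0 lower, among them Cldn4 with ratios of 13.8 and 7.98 and Gjb2, the gene of connexin 26, with 5.90 and 5.62.

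Basal layer genes were lower. Of 18 tested, 14 were at least 2-fold lower and 0 higher, with a median log2 ratio of -2.71 and -3.48. Lamb3, the laminin 332 beta chain, had 2.19 and 1.93 CPM in the upper keratinocytes, 60.8 and 84.3 CPM in the Krt10-low cells and 159 and 124 CPM in basal cells. The level of Lamb3 was thus lower with each class from the basal to the upper cells. Not every gene of the list had this order. In the LPS library Krt15, Dst and Igfbp3 had 1462, 577 and 272 CPM in the Krt10-low and 1441, 513 and 199 CPM in the basal cells. In the CpG ODN library these genes were higher in the basal cells. Itga6 and Itgb4, which form the hemidesmosome integrin, had ratios of 0.180 and 0.137 and of 0.0707 and 0.0490. Col17a1, the hemidesmosome collagen, had 0.0594 and 0.0441. Of 14 DNA replication genes 12 were lower and 0 higher, with a median log2 ratio of -2.21 and -1.88.

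Transcription and Notch regulators differed in both directions. Of 38 tested, 8 were at least 2-fold higher and 7 lower, with a median log2 ratio of 0.01 and 0.12. Grhl3, a grainyhead factor of barrier formation, had 47.4 and 56.6 CPM against 14 and 11.9 CPM. Its ratios were 3.39 and 4.74, beside 4.00 and 3.91 for Grhl1 and 0.491 and 0.452 for Grhl2. Members of that family thus differed in direction in both libraries. Prdm1 had ratios of 2.82 and 4.06, Ovol1 3.18 and 3.01 and Klf4 2.54 and 2.18. Trp63, the factor of the basal program, had 0.400 and 0.423. The Notch ligand gene Jag2 had 0.0487 and 0.0315, the receptor gene Notch1 0.359 and 0.445 and the receptor gene Notch2 2.44 and 2.18.

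Antimicrobial and alarmin genes were mostly higher. Of 18 tested, 13 were at least 2-fold higher and 0 lower, and 9 were past the limit without the 2 cells rich in Lce3. The median log2 ratio with all cells was 1.73 and 2.06. Defb14, a beta-defensin, had 5.08 and 5.06 CPM against 0.791 and 0.663 CPM, with ratios of 6.42 and 7.63. Defb4 had ratios of 6.46 and 12.9. Defb6, with 6 and 3 UMIs in the Krt10-low cells, had 15.2 (95% interval 6.69 to 42.4) and 14.4 (95% interval 4.66 to 72.2). Il1a, an alarmin cytokine, had ratios of 5.58 and 6.95. Il1f6, the older symbol of interleukin 36 alpha, depended on 1 LPS cell with 90.3% of its UMIs, and its ratios went from 8.51 and 18.2 to 8.14 and 1.79 without the 2 cells.

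Secreted signals differed in both directions. Of 17 cytokine and growth factor genes 4 were at least 2-fold higher and 4 lower. The higher ones were Areg (5.90 and 3.49) and Hbegf (3.11 and 2.67), ligands of the EGF receptor, with Ereg (2.59 and 4.40) and the chemokine gene Ccl20 (3.40 and 3.97). The lower ones were Cxcl14, Ccl27a, Tgfb1 and Tgfb2. Of 22 genes of Toll-like receptor signalling 0 were higher and 2, Tlr3 and Tlr5, lower. Tlr9, the receptor of CpG ODN, had 0 and 0 UMIs in all upper keratinocytes, Tlr4 41 and 23, and Tlr2 15 and 3. Tlr4 had ratios of 0.735 (95% interval 0.480 to 1.12) and 1.5 (95% interval 0.729 to 3.22), so that no difference was detectable at this depth. The 2 called lower also rested on few UMIs in the upper cells, 5 and 4 for Tlr3 and 11 and 0 for Tlr5, against 31 and 16 and 59 and 28 in the Krt10-low cells.

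**Figure D2:**
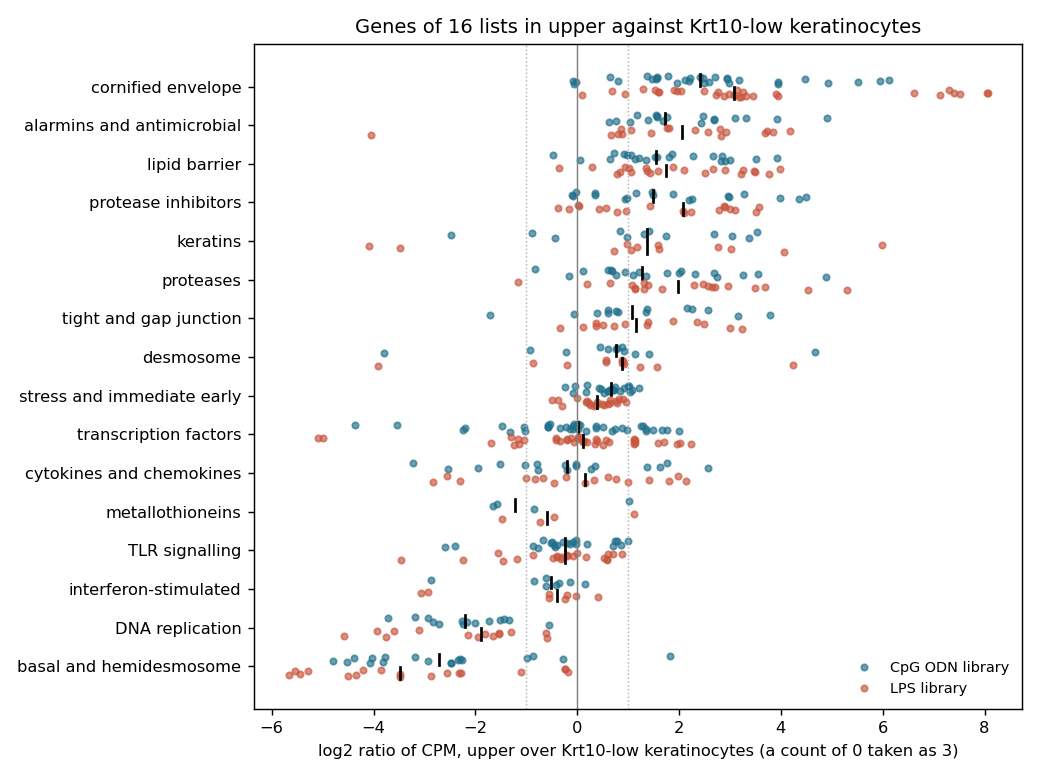
Log2 ratio of CPM in upper over Krt10-low keratinocytes for the tested genes of 16 lists, with 1 point per gene and library, black ticks for the median of each list and library, and dotted lines at 2-fold. Genes of the rule are left out and a count of 0 is taken as 3. Medians lie highest for the cornified envelope list at 2.41 and 3.08, and lowest for the basal layer list at -2.71 and -3.48.

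Beyond the lists, 10 genes with the highest ratios included Slurp1 and Slurp2, secreted Ly6-type proteins. Slurp1 had 221 and 137 CPM in the upper keratinocytes against 6.70 and 4.36 CPM, and was higher in both libraries with ratios of 33.0 and 31.4. Slurp2 had ratios of 18.8 and 28.5 and Gm1110 15.1 and 14. Saa1, a serum amyloid gene, had a ratio of 17.5 in the CpG ODN library and, with 0 UMIs in the Krt10-low cells, was at least 57.4-fold higher in the LPS library, against a floor of 3 UMIs per class (lower 95% limit 46.2). Among the lowest, the level of Tnc, the gene of tenascin C, was 0.385 and 0.0804 CPM against 16 and 19.2 CPM. Thy1, with 8 and 1 UMIs in the upper cells, had ratios of 0.0377 (95% interval 0.0161 to 0.0756) and 0.00815 (95% interval 0.000204 to 0.0464). Of the 25 genes named by rank or as markers, 23 were still past the limit without the single cell highest for each gene, the exceptions being Lce3b and Lce3f.

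Markers of other cell types were counted in the upper keratinocytes. At least 3 UMIs of leukocyte markers were found in 16 and 1 cells, with a summed level of 9.43 and 1.69 CPM and Cd3e at 0 in both libraries. Fibroblast markers reached 3 UMIs in 24 and 12 cells, at 68.2 and 11.1 CPM. Endothelial and melanocyte markers did so in 0 cells. Keratins of glands and simple epithelium did so in 13 and 10 cells, at 5.39 and 12.5 CPM. Leukocyte, fibroblast and gland markers were thus each in under 5% of the cells. Hemoglobin genes reached 3 UMIs in 30 of 928 and 77 of 246 cells (3.23% and 31.3%), at 74.0 and 508 CPM. These levels differed between the libraries, and their part in the ratios between the libraries was not tested.

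Crnn-positive cells, with at least 2 Crnn UMIs, made up 460 of the 928 upper keratinocytes of the CpG ODN library (49.6%, 95% Clopper-Pearson interval 46.3 to 52.8) and 141 of the 246 of the LPS library (57.3%, 50.9 to 63.6). Crnn was at exactly 0 UMIs in 373 and 84 cells, at 1 in 95 and 21, at 2 in 55 and 14 and at 3 in 45 and 8. The Crnn-positive cells were deeper, with a median of 33051.5 and 55465 UMIs against 21337.5 and 39168 for the other upper cells. With every cell thinned to 5000 UMIs, leaving out 28 and 7 shallower cells, the share fell to 26.8% and 27.7%. The gap between the libraries in the unthinned share was thus not seen at equal depth.

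Few genes were 2-fold apart between Crnn-positive and other upper keratinocytes. Over 10141 genes tested, 79 (0.779%) were at least 2-fold higher in the Crnn-positive cells in both libraries and 115 (1.13%) lower. Scaled by the median ratio these were 102 and 73. The median log2 ratio over all genes tested was -0.18 and -0.10. The envelope list had 4 of 30 members higher and 1 lower. Flg had 294 and 281 CPM in the Crnn-positive and 32.2 and 46.0 CPM in the other cells. Flg was thus higher where Crnn was, with ratios of 9.15 and 6.11. Hrnr had 46.6 and 2.69 and Flg2 4.88 and 2.24. Ivl, with 2 and 1 UMIs in the other cells, had ratios of 11.8 (95% interval 3.04 to 101) and 13.3 (95% interval 2.18 to 547). Crnn, Flg, Flg2 and Hrnr are neighbours of the fused S100 type in the epidermal differentiation complex. There 4 of 21 genes tested were higher, namely Flg, Flg2, Hrnr and Ivl, which is not of that type. Rptn and Tchh, also of that type, were not counted, with ratios of 6.76 and 0.183 and of 1.22 and 1.25. Sprr2a3 was the one lower, with 1.02 and 3.20 CPM against 12.1 and 56.9 CPM, but it was found in only 18 and 8 upper keratinocytes.

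Other lists held single members higher in the Crnn-positive cells. Among keratins 1 of 11 was higher, Krt13, at 18210.1 and 19011 CPM against 8251 and 8731 CPM. Krt16 and Krt6b missed the limit with ratios of 1.83 and 1.75 and of 1.52 and 1.08. Among protease inhibitors Serpinb3a and Serpinb13 of 18 were higher, at ratios of 4.40 and 3.48 and of 5.82 and 3.98, and 0 of 19 proteases were. Cldn4 (3.51 and 2.61) and Cldn1 (2.12 and 2.31), claudin genes of the tight junction, were higher among 13 junction genes. Dsc1 was the 1 of 11 desmosome genes, with 3.79 and 2.65, and Sdr9c7, a lipid barrier dehydrogenase, the 1 of 22 lipid genes, with 3.80 and 2.06. Defb14 and Defb6 were higher with 4.15 and 2.82 and 11.0 and 3.35. Cryba2 had 496 and 505 CPM against 255 and 197 CPM and missed the limit in the CpG ODN library.

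Outside the lists Myoc gave the highest ratio. This gene of myocilin had 66.8 and 91.6 CPM in the Crnn-positive cells and 3.89 and 3.01 CPM in the other upper cells. Its ratios of 17.2 (95% interval 12.5 to 24.2) and 30.5 (95% interval 17.7 to 57.5) lay above those of Flg in both libraries. Saa1 followed with 4.59 and 21.1, Gm1110 with 4.78 and 4.00, Krtap3-3 with 3.83 and 7.51 and Edn2, the gene of endothelin 2, with 2.99 and 4.23.

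Genes lower in the Crnn-positive cells included Chil4, a chitinase-like gene, at 22.2 and 3.82 CPM against 145 and 215 CPM, in the 2 libraries. In the LPS library Chil4 was found in 1 of 141 Crnn-positive and 3 of 105 other cells. Ccnd1, the gene of cyclin D1, had ratios of 0.283 and 0.328. Msn and Flna, which link actin to the membrane and to itself, had 0.422 and 0.349 and 0.419 and 0.373. Of 15 basal layer genes 3 were lower, namely Dst, Itgb1 and Col7a1. Of 36 regulators 0 were higher and 2, Pax9 and Barx2, lower.

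Without the 2 cells rich in Lce3, the counts over the same 10141 genes were 117 higher and 126 lower, and the envelope list had 6 higher and 1 lower. Flg then had ratios of 9.16 and 11.7 and Hrnr of 46.5 and 29.2. In the LPS library Hrnr in the other upper cells thus came largely from 1 cell. All 20 genes named by rank kept their side of the limit without the single cell highest for each gene.

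The members also varied along Krt10 itself. They were divided at 0.1%, 0.5% and 2% of UMIs from Krt10, giving 166, 417, 288 and 57 cells in the CpG ODN library and 33, 104, 91 and 18 in the LPS library. Levels across these ranges are a description, and depth went up with them, from a median of 21355.5 to 30815 UMIs and from 35497 to 61964.5 UMIs. The Crnn-positive share was 28.9%, 47.7%, 61.1% and 64.9% in the CpG ODN library and 30.3%, 55.8%, 65.9% and 72.2% in the LPS library. Thinned to 5000 UMIs it was 11.7%, 23.6%, 36.6% and 45.3%, and 8.60%, 21.5%, 37.3% and 51.6%. The order was thus kept at equal depth in both libraries.

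Krt16 had 8213, 14934, 20883 and 22656 CPM from the lowest to the highest Krt10 range in the CpG ODN library. In the LPS library Krt16 had 8387, 13265, 17938 and 23445 CPM. Spink5 had 882, 1244, 1560.3 and 1971 CPM and 924, 1148, 1353 and 1679 CPM. Both genes stood higher with each step of Krt10 in each library. Basal genes ran the other way, and Itga6 had 61.1, 41.8, 38.5 and 22.4 CPM and 76.7, 39.8, 29.2 and 13.3 CPM.

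Krt13 did not follow Krt10. Its level was 11999, 15862, 14904 and 5511 CPM in the CpG ODN library and 9085, 18259, 15378 and 9056 CPM in the LPS library, highest in the range from 0.1% to 0.5%. Cryba2 had 303, 471, 425 and 21.2 CPM and 306, 454, 417 and 143 CPM. Cryba2 was thus lowest where Krt10 was highest in both libraries. Krt13 was lowest there in the CpG ODN library, and in the LPS library its counting intervals in the lowest and the highest range overlapped. For Cryba2 1 LPS cell held 72.2% of the UMIs of the highest range, and a UMI was found in 13 of 57 and 12 of 18 cells there, against 190 of 288 and 60 of 91 cells in the range below.

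Slurp1 was concentrated in the highest range, with 34.4, 105, 195 and 1540.1 CPM and 1.69, 79.0, 135 and 563 CPM. Krt1 had 41.4, 166, 285 and 1325 CPM and 63.2, 212, 615 and 3793 CPM. Both stood higher with each step, but 1 LPS cell held 80.3% of the Krt1 UMIs of the highest range.

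The range from 2% was set against that from 0.5% to 2%, a comparison added after the values were seen. Over 6457 genes with at least 50 UMIs in each library, 8 (0.124%) were at least 2-fold higher in both libraries and 24 (0.372%) lower. Genes of the rule were kept in this count. Krt10, which set the ranges, was thus among the 8, at 27995 against 10025 CPM and 27393 against 9573 CPM. Among 215 genes of the lists and names, 6 were higher and 4 lower. The higher ones were Slurp1 (7.91 and 4.18), Slurp2 (5.22 and 2.32), Krt1 (4.66 and 6.17), Klk5 (13.1 and 3.33), Hrnr (3.33 and 4.21) and Acsbg1 (2.54 and 2.62). The lower ones were Krt4 (0.468 and 0.0596), Krt5 (0.427 and 0.135), Cryba2 and Cxcl10, of which Krt5 belongs to the rule. Without the cell highest for each gene in each range and library, Krt1 missed the limit with 4.27 and 1.51, and the other 9 genes stayed past it.

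**Figure D3:**
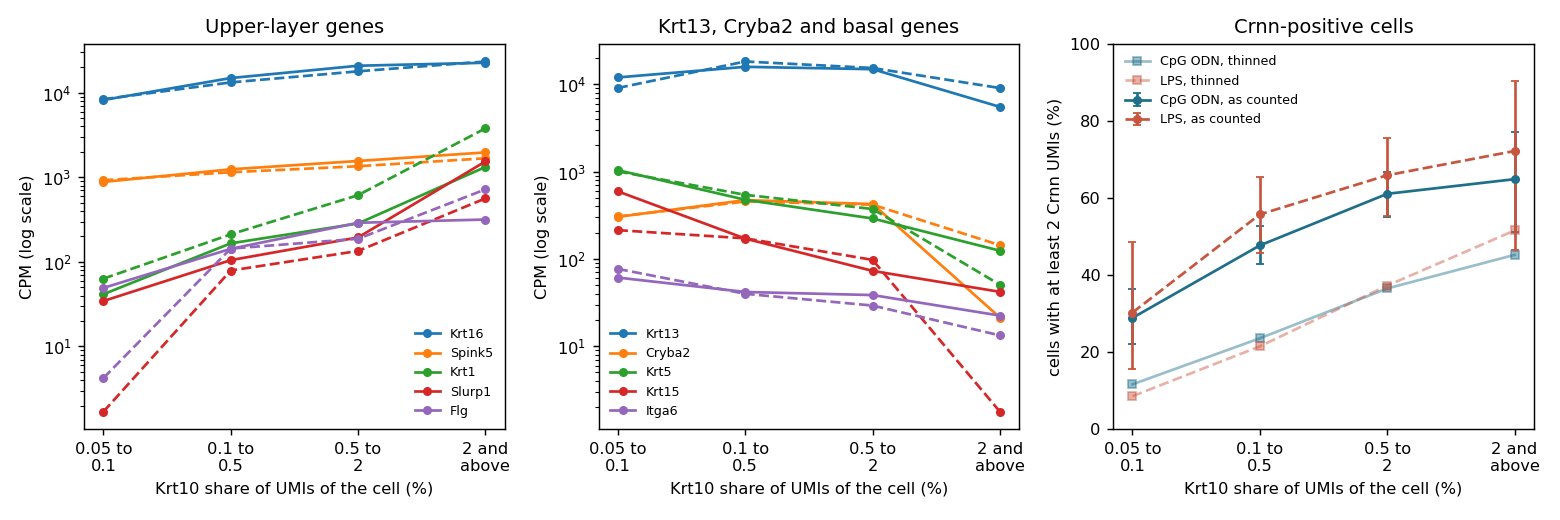
Levels by range of the Krt10 share of UMIs within upper keratinocytes, as CPM on a log axis (left and middle; solid lines for the CpG ODN and dashed lines for the LPS library), and the share of Crnn-positive cells in percent as counted, with 95% Clopper-Pearson intervals, and thinned to 5000 UMIs per cell (right). Krt16 and Spink5 stand higher and Itga6 lower with each range, Krt13 peaks from 0.1% to 0.5%, and the thinned Crnn-positive share goes from 11.7% to 45.3% in the CpG ODN library.

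The ligands were compared in the upper keratinocytes as 2 libraries. Of 10142 genes tested, 67 (0.661%) were at least 2-fold higher in the CpG ODN library and 67 (0.661%) at least 2-fold higher in the LPS library. The markers differed little. Krt16 had a ratio of CpG ODN over LPS of 1.06 (95% interval 1.06 to 1.07), Cryba2 of 1.01 (95% interval 0.973 to 1.04), Flg of 0.955 (95% interval 0.910 to 1.00) and Crnn of 0.856 (95% interval 0.826 to 0.886). These describe a pair of libraries and carry no replicate check, and the ligand, the mice, the depth and the library cannot be told apart.

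The highest and lowest genes between the ligands are best known from other cell types. Col1a1, the collagen I gene of fibroblasts, led with 12.4 and 0.0804 CPM, followed by Col3a1 and Col1a2, and 3 CpG ODN cells held 80% of the UMIs of these 3 genes. Cd74 and the class II genes H2-Aa, H2-Ab1 and H2-Eb1 of antigen presentation came next, with 33.6 and 1.93 CPM for Cd74. The UMIs of those 4 genes were spread over 140 of 928 and 26 of 246 cells, with 80% of them in 10 and 15 cells.

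At the other end stood secretory genes of salivary glands, such as Dcpp1, Dcpp2, Dcpp3, Muc19, Muc5b and Tff2. The 10 of them named by rank summed to 9.47 and 938 CPM in the upper keratinocytes, and 3 LPS cells held 80% of their LPS UMIs. In lymphocytes they summed to 37.5 and 376 CPM, where 1 LPS cell held at least 100 of the 184 UMIs, and in fibroblasts to 37.4 and 25.8 CPM. The share of upper keratinocytes with at least 1 such UMI was 20.5% and 56.5%, against 13.8% and 28.4% of lymphocytes.

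Of the lists, the envelope list held 0 of 31 genes higher in the CpG ODN library and 10 higher in the LPS library. These were Lor, Cdsn, Sprr3, Sprr2k, Sprr2a3 and 5 Lce3 genes. Without the 2 cells rich in Lce3 2 of the list, Lce3b and Sprr2a3, were higher in the LPS library. Both rested on few cells. Of the 10 Lce3b UMIs left in the LPS library, 1 cell held 9. Sprr2a3 was found in 18 (1.94%) and 8 (3.25%) upper keratinocytes, and with all cells counted 1 LPS cell held 54.8% of its UMIs there. Over the same 10142 genes 71 were higher in the CpG ODN library and 42 in the LPS library. Lor went from a ratio of 0.163 to 0.624, Rptn from 0.576 to 1.6 and Il1f6 from 0.340 to 3.31. The last 2 thus changed side.

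Keratins higher in the LPS library were Krt1 and Krt4. Krt1 had 265 and 678 CPM and a ratio of 0.391 (95% interval 0.379 to 0.404), which became 0.617 without the single cell highest in each library. Krt4, a mucosal keratin, had 272 and 558 CPM and a ratio of 0.487, which became 0.594. Saa1 had 4.62 and 16.3 CPM, and its ratio of 0.283 became 0.358. Of the 67 genes higher in the LPS library, 39 were counted when each gene was taken without its highest cell. Lists of Toll-like receptor signalling, desmosomes, junctions and cytokines held 0 genes past the limit in either direction.

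**Figure D4:**
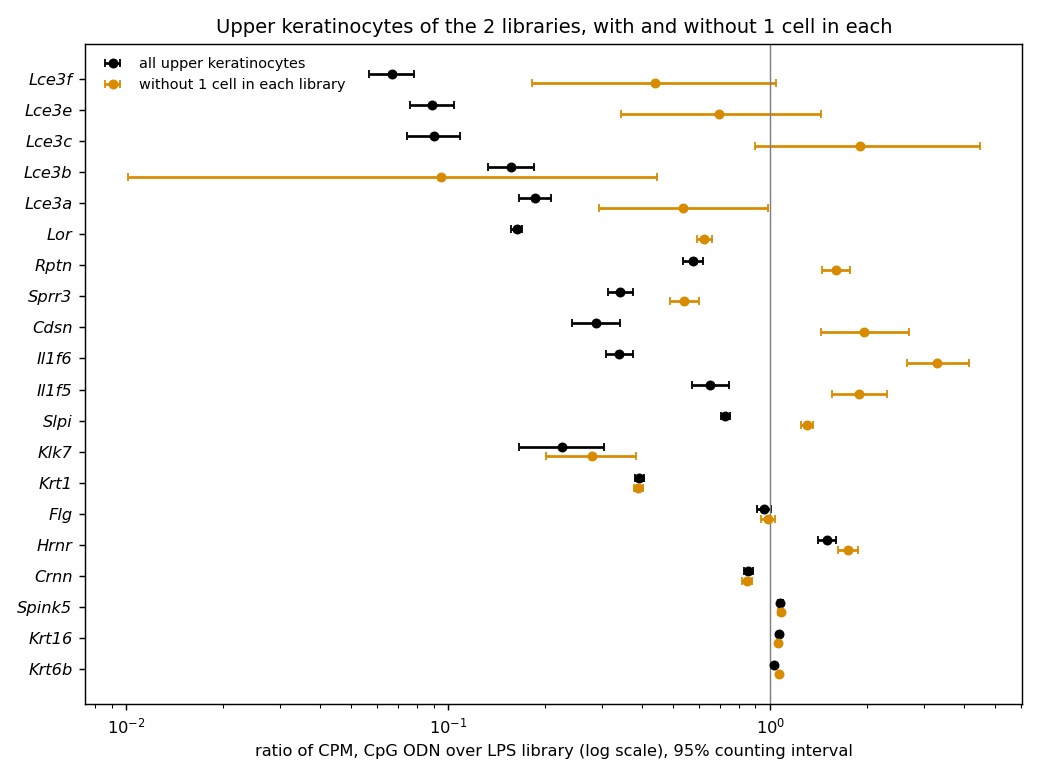
Ratio of CPM in the CpG ODN over the LPS library in upper keratinocytes for 20 genes on a log axis, with 95% counting intervals, for all cells and without the 2 cells rich in Lce3 (1 in each library). Lor moves from 0.163 to 0.624 and Il1f6 from 0.340 to 3.31, while Krt16, Spink5 and Flg stay near 1.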

How the data were processed

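Gingival cells had been released with collagenase II and trypsin and run on 10x Chromium 3' chemistry. The authors deposited UMI counts per gene and barcode as 1 filtered matrix per library, made with Cell Ranger 4.0.0 per the file headers. The submitters' processing notes also name Seurat, and the genome build is not given in the sources used here. Coordinates came from GENCODE M21 (GRCm38), matched by gene ID for 32158 of 32285 genes, and promoters from RefSeq. No doublet caller was run.

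The members and the 16 gene lists (355 of 361 genes in the files) were chosen with earlier results of these data known. UMIs were summed per library and class, divided by all UMIs of that class and expressed as CPM. Ratios of CPM carry exact conditional binomial 95% intervals, and levels exact Poisson intervals. A gene was tested with at least 50 UMIs over the cells compared (in each library for the comparison of the highest Krt10 ranges). It was counted with a ratio of at least 2-fold and its interval on one side of 1, in both libraries where both were used. Ratios against a count of 0 used a floor of 3 UMIs per library and class. Lymphocytes held at least 3 UMIs of B or T cell genes, and fibroblasts at least 1% collagen UMIs, with little keratin. Genes were named as markers or rule genes, as the 10 highest and lowest by the smaller change of the libraries (at least 100 UMIs), or from the lists (those past the limit and up to 4 of the most abundant). Genes with older symbols (Il1f5, Il1f6, Il1f8, Il1f9) are named as in the files. The code was tested on simulated counts. Python 3.11.15, numpy 2.4.6, scipy 1.17.1, pandas 2.3.3 and matplotlib 3.10.9 were used.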

Additional observations from a re-analysis of the deposited data

Results flagged for a closer look

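The difference between the libraries was not tested for any of the genes below, since each ligand had 1 library. They are genes whose ratio was at least 2-fold in one direction in the CpG ODN library and at least 2-fold in the other in the LPS library. Upper over Krt10-low keratinocytes, Agr2 had ratios of 0.325 and 2.4, S100a8 2.04 and 0.0601, and Col1a1 8.41 and, from 1 UMI, 0.106 (95% interval 0.00239 to 0.791). Agr2 and Col1a1 are a gland and a fibroblast gene.

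Crnn-positive over other upper keratinocytes, such opposite ratios were found for envelope, protease, inhibitor and interleukin 36 family genes. Lce3a had 13.1 and 0.0100, Lce3c 11.6 and 0.00698, Lce3e 29.8 and 0.00376, and Lce3f 22.3 and 0.00556. Lce3b and Lce3d were at 0 in the other cells of the CpG ODN library and so, against a floor of 3 UMIs, at least 44.6-fold and at least 4.59-fold higher there (lower 95% limits 35.9 and 3.41), against 0.00869 and 0.0999 (95% interval 0.0187 to 0.349) in the LPS library. Lor had 2.69 and 0.0686, Rptn 6.76 and 0.183, and Sprr3 2.88 and 0.274. Sprr2k, with 1 UMI in the other cells of the CpG ODN library, had 17 (95% interval 2.80 to 699) and 0.124. The gene 2310046K23Rik had 5.0 and 0.207, Klk7 6.56 and 0.436, Slpi 3.11 and 0.368, and Wfdc5 2.39 and 0.476. Il1f5 had 2.23 and 0.116, Il1f6 2.4 and 0.0364, and Il1f8 3.09 and 0.156.

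Many of these values moved with 1 cell in either library. The LPS upper keratinocyte of 121055 UMIs held 1 Crnn UMI, so it counted among the other cells. Without the single cell highest for each gene in each class and library, Slpi had ratios of 7.92 and 1.36, 2310046K23Rik 6.55 and 1.04, and Il1f6 4.46 and 0.726. In the CpG ODN library 1 cell held 202 of 204 Lce3b UMIs of the Crnn-positive cells, and Lce3a and Lce3f went to 3.93 and 1.53 there. Sprr3 still had 8.12 and 0.349, and Lor 6.73 and 0.307.

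Barcodes with fewer than 800 detected genes were left out of every comparison. Among them 67 of 1331 (5.03%) in the CpG ODN library and 33 of 739 (4.47%) in the LPS library met the other limits for upper keratinocytes.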

How the results depend on the processing

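No paired analysis was possible because only 1 library stood for each ligand, so no replicate could be left out either. Of the shares and counts recomputed under alternatives, 101 moved by less than their counting interval or 1.5 times and 51 moved more. Of the values of single genes, 643 stayed within the interval, 200 moved and 2 reversed: Lce3f over Krt10-low cells went to 0.956 in cells of 10000 to 40000 UMIs, and Col1a2 between the ligands to 0.939 without cells holding 3 UMIs of other cell types. Past the 2-fold limit as reported but not with Krt10 of at least 0.5% were Cryba2 (1.77), Saa1 (1.65) and 3 Lce3 genes over Krt10-low cells, Hrnr (1.63), Ccnd1 (0.731), Msn (0.562), Paics (0.554), Flna (0.527) and Gas1 in Crnn-positive over other cells, and H2-Aa (1.20), H2-Eb1 (1.05) and 6 gland genes such as Tff2 (0.802) between the ligands. For Chil4 and Sprr2a3 in Crnn-positive over other cells, those of 10000 to 40000 UMIs gave no ratio common to both libraries. Except where stated, the cause of a move was not tested.

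The share of cells that were upper keratinocytes was 15.6% and 16.7% with Krt10 of at least 0.1% of UMIs and 7.06% and 8.54% with at least 0.5%, 17.3% (CpG ODN) with at least 200 detected genes, 20.7% (CpG ODN) with at least 1200, 27.9% and 9.97% in cells of 10000 to 40000 UMIs, and 27.5% and 30.2% without cells holding 3 UMIs of other cell types, which removes other cells from the total. The Crnn-positive share was 54.1% (CpG ODN) and then 61.7% and 67.0% at these Krt10 limits, 43.2% and 32.9% in cells of 10000 to 40000 UMIs, 59.8% and 65.9% with at least 1 Crnn UMI, 35.9% and 45.5% with at least 5, and 35.1% and 37.4% with Crnn of at least 0.02% of UMIs.

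Genes higher and lower in upper than in Krt10-low keratinocytes numbered 383 and 792 in cells of 10000 to 40000 UMIs and 946 and 3247 at 1.5-fold. In Crnn-positive against other cells, 64 were lower with Krt10 of at least 0.1%, 33 higher and 48 lower with at least 0.5%, 76 lower in cells of 10000 to 40000 UMIs, 167 and 232 by the mean over cells, 141 higher with at least 1 Crnn UMI, 224 lower with at least 5, 149 and 304 with at least 0.02%, 215 and 390 at 1.5-fold, 73 lower scaled by the median ratio, and 287 and 417 in the CpG ODN or 182 and 319 in the LPS library alone, where 1 library in place of 2 had to pass. Between the ligands, genes higher in the CpG ODN and in the LPS library numbered 113 and 242 in cells of 10000 to 40000 UMIs, 174 and 265 at 1.5-fold and 236 and 234 with no minimum of UMIs. Higher in the CpG ODN library were 37 without cells holding 3 UMIs of other cell types. Higher in the LPS library were 39 without the cell highest for each gene and 41 without the cells rich in Lce3, with the minimum of UMIs applied again. The alternatives that leave out single cells, take 1 library alone or leave out shared barcodes were chosen after seeing the data.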

Other observations

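Stress, interferon and metallothionein genes of the upper keratinocytes are given here as values. Of 21 stress and immediate early genes 0 were at least 2-fold apart from Krt10-low cells in both libraries, with a median log2 ratio of 0.66 and 0.38. Of 8 interferon-stimulated genes tested 0 were higher and 1 lower, Ifitm3 at 21.1 and 20.3 CPM against 155 and 170.0 CPM. Metallothioneins differed among themselves. Mt4, known from stratified epithelia, had ratios of 2.03 and 2.18, and Mt2 had 0.319 and 0.358. Between the ligands 0 of 21 stress, 0 of 6 interferon-stimulated and 0 of 4 metallothionein genes were 2-fold apart in the upper keratinocytes.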
